A study of Oryza sativa with 45 samples.

Results

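The genes described here are the neighbours, by identifier, of the SUBMERGENCE 1 (SUB1) locus on rice chromosome 9. They are the rows of the count table with identifiers from OS09G0270000 to OS09G0300000, other than OS09G0286600 and OS09G0287000, that had a count of 10 or more in at least 2 libraries. Of the 113 rows in the segment, 83 met the count rule, and 81 remained once the 2 rows were set aside, out of 35677 rows in the table. Of these 81 members, 80 passed the filter for the fit and 1, OS09G0278000, was not tested. The identifiers follow the order of the genes along the chromosome, so the members were read in identifier order, which gives neighbourhood and not distance in bases. A description was at hand for 5 of the 81 members, and the other 76 are given by identifier alone.

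RNA was sequenced from seedlings of 4 near-isogenic lines of the indica cultivar IR64, seeded underwater and kept submerged for 2, 4, 8 or 14 d. The lines were IR64, IR64(AG1) with the ANAEROBIC GERMINATION 1 segment of the landrace KHO, IR64(SUB1) with the SUB1 segment of the landrace FR13A, and IR64(AG1,SUB1) with both. Both loci lie on chromosome 9, so AG1 is not a background on another chromosome. Each combination of the loci is a single line, so within a pair of lines a property of the line and a property of the segment cannot be told apart. IR64 and IR64(AG1) carry the SUB1A-2 allele in place of SUB1A-1, and IR64 and IR64(SUB1) lack the AG1 gene TPP7. The tissue was labelled embryo at 2 d and coleoptile later, and each library came from pooled seedlings. The 45 libraries fell into 16 groups of line and day with 3 libraries each, except for 2 in IR64(AG1,SUB1) at 2 d and at 4 d and 2 in IR64(SUB1) at 8 d. SUB1-carrying lines, meaning IR64(SUB1) and IR64(AG1,SUB1), had 21 libraries and the other lines 24.

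SUB1 is a cluster of genes for group VII ethylene-responsive transcription factors. Its member SUB1A-1 is induced by ethylene in submerged shoots and restrains elongation and carbohydrate use, so that plants survive until the water recedes. The SUB1A-1 allele comes from FR13A, and the locus was moved into IR64 by introgression with molecular markers. A line made in this way keeps donor DNA on both sides of the selected gene as far as the nearest crossovers, and genes inside that stretch carry the donor's alleles. A donor allele can be transcribed at another level than the allele it replaced, and its reads can also align less well to the Nipponbare reference genome. The same holds for reads of the IR64 allele, since IR64 is indica and Nipponbare japonica, and a loss there would make SUB1-carrying lines look higher. The paper adds that insertions, deletions or copy number may account for some of the differences between genotypes. In counts, a lower transcript level and a loss of aligned reads cannot be told apart, nor can fewer cells of a type and less RNA per cell.

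The libraries held 12256409 to 24870831 counts (median 20459708). Among the tissue markers, the embryo genes for RAB16 and Em had medians of 7.78 and 10.02 CPM, the counts scaled to a common library size, at 2 d and of 0.104 and 0 at 14 d. The transcript for a chlorophyll a/b-binding protein, a marker of green shoots, had a median of 0.138 CPM at 2 d, 1130 at 8 d and 2383 at 14 d, so that this marker was high in libraries labelled coleoptile on the later days. The SUB1A-01 row, counted on the added SUB1A-1 sequence, had a mean of 56.1 CPM in SUB1-carrying lines and 1.00 in the others at 8 d, and 146 against 17.9 at 14 d, with no overlap between the kinds of line on either day.

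SUB1-carrying lines differed from the other lines at 12 of the 80 tested members as a mean of the 4 days, or 15% of them. Over all 26180 genes tested, 1.04% were called in the same comparison. A call needed a false discovery rate (FDR) under 0.05 and a log2 fold change of more than 1 in size. The transcripts of 8 members were higher in SUB1-carrying lines, where 0.489% of all genes were, and those of 4 were lower, where 0.554% of all genes were. Without the fold threshold 27 members, or 33.8%, passed the FDR, against 4.95% of all genes. The median size of the difference was 0.214 on the log2 scale in the members and 0.0932 over all genes. The members were not shifted as a whole, since their median signed difference was -0.04 and that of all genes -0.01. Differences of less than 0.5 on the log2 scale in either direction were seen at 51 members.

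The comparison was made separately in the presence and absence of AG1, in pairs of lines that have no library in common. IR64(SUB1) differed from IR64 at 12 members (15%), 8 higher and 4 lower, where 1.53% of all genes were called, 0.661% higher and 0.867% lower. IR64(AG1,SUB1) differed from IR64(AG1) at 14 members (17.5%), 10 higher and 4 lower, where 2.34% of all genes were called, 1.17% in each direction. In both pairs and in the same direction, 9 members (11.2%) were called, 7 higher and 2 lower, where 0.47% of all genes were, 0.244% higher and 0.225% lower. The other 3 members called over both pairs together were OS09G0274025, higher, and OS09G0279300 and OS09G0283600, lower, each called in a single pair. Across the 80 members, the log2 fold changes of the pairs had a Pearson correlation of 0.833 and a Spearman correlation of 0.549, and across all genes tested these were 0.203 and -0.115. These are correlations over genes, which are not independent replicates and which share libraries and depth within each pair. Of 16 members called in either pair, 1, OS09G0295200, was called in opposite directions.

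**Figure D1:**
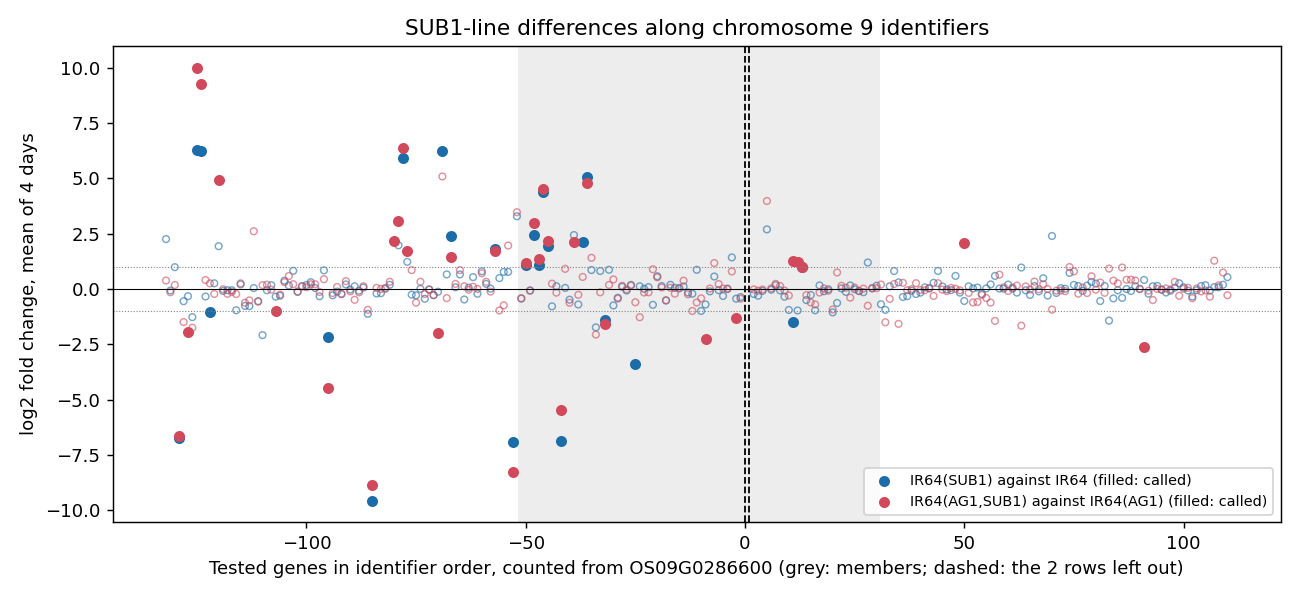
Log2 fold change of the SUB1 pairs, as a mean of 4 days, for tested genes in identifier order from OS09G0240000 to OS09G0330000; the horizontal axis counts genes from OS09G0286600, grey marks the segment of the members, dashed lines mark the rows set aside, and filled points were called. The filled points of both colours lie mostly at the left of the grey area and beyond it, and the points right of the segment lie mostly near 0.

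Lines with the same SUB1 state were compared in the same segment, although they are distinct lines and may differ elsewhere than at AG1. IR64(AG1) against IR64 gave 0 calls among the 80 members, where 0.821% of all genes were called by the edgeR quasi-likelihood test, 0.424% higher and 0.397% lower. At an unadjusted p under 0.05 there were 6 members in this comparison, and DESeq2 also called 0. The pair with SUB1, IR64(AG1,SUB1) against IR64(SUB1), gave 3 calls (3.75%), all higher, where 2.62% of all genes were called, 1.67% higher and 0.959% lower. Those were OS09G0295200, OS09G0295300 and OS09G0298100. Their count rose to 5 without replicate 1 of IR64(SUB1) at 14 d and also without replicate 1 of IR64(AG1,SUB1) at 4 d. Over the 1459 tested rows of chromosome 9, which also holds AG1, IR64(AG1) against IR64 gave 9 calls. The pair with SUB1 gave 55 there. Over all genes 0.821% and 2.62% were called in these comparisons.

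The calls were not spread evenly along the segment. Of 20 tested members from its start to OS09G0277800, 9 were called between SUB1-carrying and other lines, 7 higher and 2 lower. That border was set from these same calls, as the last member below the SUB1 rows called in both pairs. Counts and medians on either side of it are therefore partly fixed by the choice, which the bins of fixed width do not use. Of the next 31 members, from OS09G0278300 to OS09G0286400, 2 were called, both lower, and of the 29 members beyond the SUB1 rows 1 was called. In bins of 5000 identifier numbers, the share of members called was 46.7% in the first bin and then 18.8%, 5.56%, 0%, 0% and 5%. The median size of the difference was 1.18 on the log2 scale up to OS09G0277800, 0.167 between there and the SUB1 rows, and 0.107 beyond them. Beyond OS09G0296900, the last member whose libraries lay apart on every day, 14 members followed with 0 calls by edgeR. This border was likewise set from the values, and over all genes tested only 1.04% were called. None of the 14 passed the FDR, where 4.95% of all genes did, 3 had an unadjusted p under 0.05, and DESeq2 called 0. With so few members, 0 is near the share of all genes.

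The rows on either side of the segment were tested in the same fit. In the 30000 identifier numbers below it, 11 of 81 tested genes were called (13.6%), 9 of them in both pairs. In the same span above it, 0 of 80 were called by edgeR or DESeq2, 6 passed the FDR alone, and 16 had an unadjusted p under 0.05. Over all genes tested, 1.04% were called and 4.95% passed the FDR alone, so 0 of 80 is near the share of all genes. Over chromosome 9, 50 of 1459 tested rows were called (3.43%). Below the rows of the lower flank, 3 rows were tested down to OS09G0150000, and then 8 of 58 tested rows were called from OS09G0120000 and 6 of 48 from OS09G0090000. Above the upper flank, 5 of 58 tested rows to OS09G0359999 were called, 1 of them in both pairs.

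**Figure D2:**
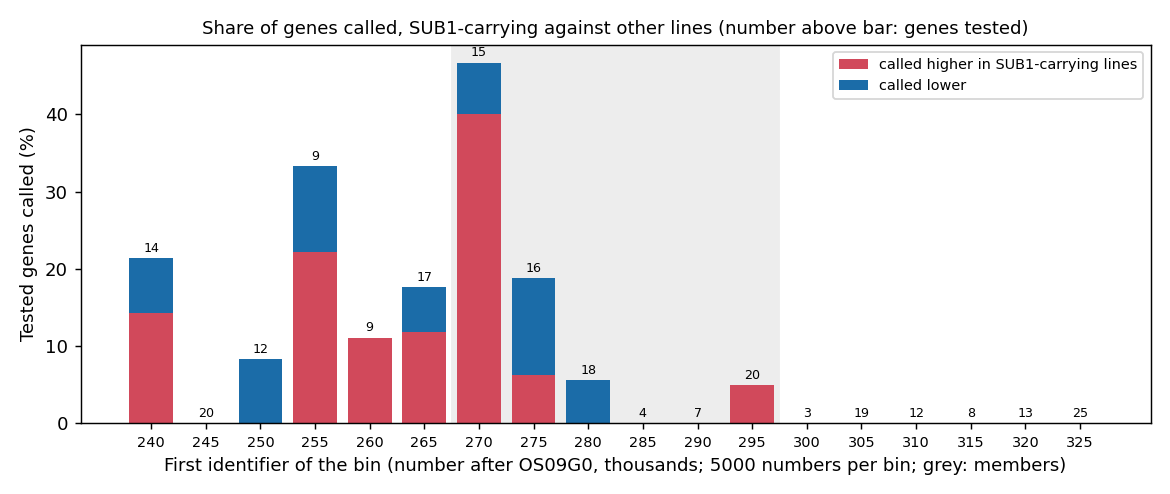
Share of tested genes called between SUB1-carrying and other lines (percent, vertical axis) in bins of 5000 identifier numbers, with red for higher and blue for lower in SUB1-carrying lines, the number of genes tested above each bar, and grey for the segment of the members. The share is 46.7% in the first bin of the segment and 0% in every bin above the segment.

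Within the first bin a run of neighbouring members was higher in SUB1-carrying lines. OS09G0272000 had a lowest, median and highest level of 8.77, 79.0 and 178 CPM in the 21 SUB1-carrying libraries and of 1.53, 11.9 and 25.1 CPM in the 24 others. On each day every SUB1-carrying library was above every other library. At 4 d, the day of its highest level, IR64(SUB1) stood at 162 ± 11 CPM (SD, n = 3) and IR64(AG1,SUB1) at 167 ± 16 (n = 2), against 20.5 ± 3.5 in IR64 and 23.9 ± 1.3 in IR64(AG1) (n = 3 each). The group means differed between 5.52-fold, at 14 d, and 7.50-fold, at 8 d. The log2 fold change over the days was 2.42 ± 0.11 (SE) in the pair without AG1 and 2.99 ± 0.11 in the pair with it. In all 4 lines the level was lower at 14 d than at 2 d, with a log2 fold change of -2.48.

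OS09G0272500 was the member with higher levels in SUB1-carrying lines whose libraries did not overlap even over all days at once. It ranged from 15.7 to 54.1 CPM (median 32.1) in SUB1-carrying libraries and from 3.33 to 11.9 CPM (median 7.24) in the others. The difference was largest at 4 d, 5.29-fold, and smallest at 14 d, 3.34-fold. Its log2 fold change was 1.96 ± 0.10 (SE) in the pair without AG1 and 2.18 ± 0.10 in the pair with it, with an edgeR FDR of 7.05e-24 for both pairs together.

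OS09G0272300 was higher by a smaller factor. Its libraries spanned 22.7 to 81.8 CPM (median 49.3) with SUB1 and 10.9 to 29.0 CPM (median 20.5) without. The kinds of line did not overlap on any day, and overlapped once the days were pooled. The factor went from 2.78 on the first day sampled to 3.43 at 4 d and 1.56 by 14 d, and the call was made at 2 and 4 d only.

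OS09G0270900, the first member called in both pairs, lay between 13.8 and 36.3 CPM (median 23.1) in SUB1-carrying libraries and between 3.71 and 23.6 CPM (median 10.3) in the others. The libraries overlapped at 14 d and not on the earlier days. Its log2 fold change was 1.13 ± 0.07 (SE), with an edgeR FDR of 2.53e-15, and the factor was 2.56 at 4 d and 1.65 at 14 d. The member before it, OS09G0270700, annotated as a disease resistance protein domain containing protein, stood at 1.31 to 5.42 CPM with SUB1 and 2.14 to 6.05 without, and its log2 fold change of -0.43 over the days was not called.

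OS09G0272401 was nearly restricted to SUB1-carrying lines early on. At 2 d its libraries there held 83 to 193 counts, a level of 8.53 ± 1.6 CPM (SD, n = 5), and the other libraries held 3 to 20 counts, or 0.650 ± 0.54 CPM (n = 6). At 4 d the counts were 61 to 143 against 0 to 6. By 14 d SUB1-carrying libraries held 0 to 28 counts and the others 0 to 3, and the kinds of line overlapped. The log2 fold change was 3.81 at 2 d and 5.52 at 4 d, where the second rests on 0 to 6 counts a library in the other lines.

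OS09G0275200 was a low transcript with counts in every SUB1-carrying library. At 2 d it was at 0 counts in all 6 libraries of IR64 and IR64(AG1) and at 6 to 44 counts in the 5 SUB1-carrying libraries. Taking 3 counts per library as the floor, it was then at least 6.17-fold higher when SUB1 was alone and at least 8.34-fold higher when AG1 was also there. At 4 d SUB1-carrying libraries held 17 to 73 counts and the others 0 to 6. At 8 d they overlapped, with 8 to 34 counts against 0 to 10, and at 14 d 10 to 30 counts stood against 0 to 5. Over all days, 14 of the 24 libraries of the other lines were at 0.

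OS09G0273600 showed the reverse. In SUB1-carrying lines it was at 0 counts in 15 of 21 libraries, among them all 10 of 2 and 4 d, and in the other lines at 0 in 1 of 24. The level in IR64 and IR64(AG1) was higher on the later days, at 0.492 ± 0.17 CPM (SD) at 2 d, 3.84 ± 0.65 at 8 d and 8.15 ± 1.0 at 14 d (n = 6 each). At 14 d the 3 libraries of IR64(SUB1) held 0 counts, at least 69.5-fold lower than IR64 against the floor of 3 counts per library. The 3 libraries of IR64(AG1,SUB1) held 0, 3 and 8 counts on that day, against 179 to 234 in IR64(AG1). The highest count in a SUB1-carrying library was 25, in replicate 1 of IR64(AG1,SUB1) at 8 d.

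OS09G0277800 was the member lower in SUB1-carrying lines without overlap over all days. Its lowest, median and highest levels were 14.9, 20.2 and 31.0 CPM in SUB1-carrying libraries and 39.4, 55.0 and 79.4 CPM in the others. At 14 d it stood at 19.7 ± 0.96 CPM when SUB1 was alone and 20.7 ± 0.93 when it was combined with AG1, against 66.5 ± 5.9 in IR64 and 73.3 ± 5.8 in IR64(AG1) (SD, n = 3 each). The factor was smallest at 4 d, 2.05, and largest at 14 d, 3.46. The log2 fold change was -1.39 ± 0.07 (SE) without AG1 and -1.58 ± 0.08 with it.

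A single member called in both pairs lay beyond the SUB1 rows, and its fold change was at the threshold. OS09G0296400 spanned 2.25 to 12.5 CPM (median 5.62) in SUB1-carrying libraries and 1.36 to 6.55 CPM (median 2.84) in the others. Its log2 fold change was 1.01 in each pair and 1.01 ± 0.12 (SE) over both. It fell under the fold threshold in 12 of the fits that left out a library, down to 0.910, so its call is not firm. The libraries did not overlap at 4 and 14 d and overlapped at 2 and 8 d. The next member, OS09G0296700, had a log2 fold change of -0.39 and was not called.

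**Figure D3:**
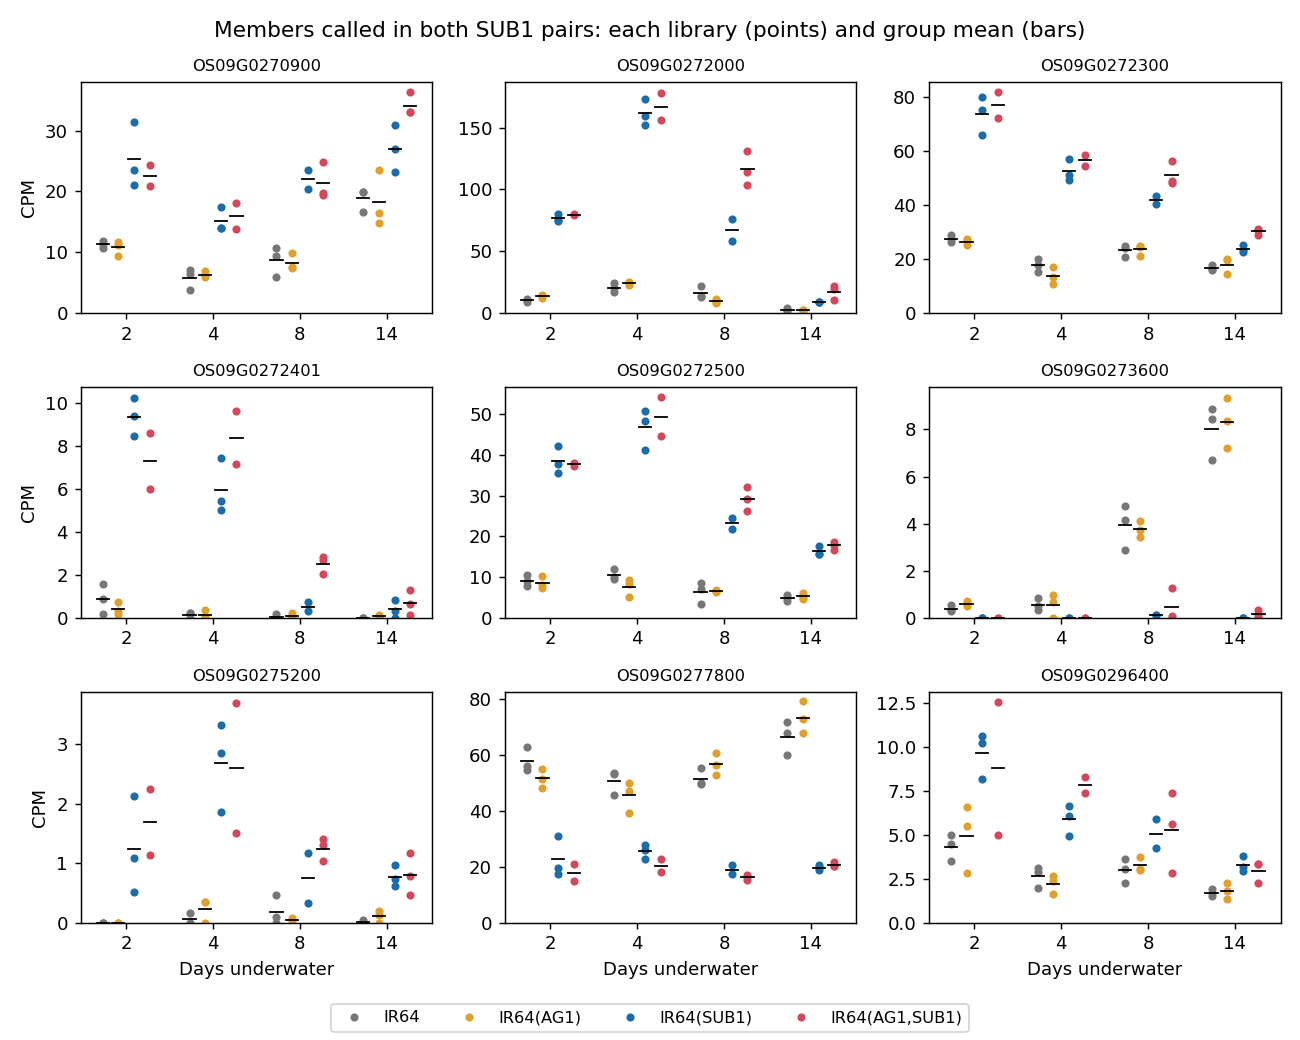
Level in CPM (vertical axis, from 0) against days underwater of the 9 members called in both SUB1 pairs, with a point for each library and a bar for each group mean, coloured by line. Group means of IR64(SUB1) and IR64(AG1,SUB1) lie above those of the other lines in 7 panels and below them in those of OS09G0273600 and OS09G0277800, with single points overlapping on some days.

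The libraries of SUB1-carrying and other lines did not overlap over all days at 2 of the 80 members (2.5%), where 0.176% of all genes met this (0.0688% higher and 0.107% lower), and on every single day at 6 members (7.5%), where 0.302% of all genes did (0.157% higher and 0.145% lower). The 6 were OS09G0272000, OS09G0272300, OS09G0272500 and OS09G0280300, which were higher in SUB1-carrying lines, and OS09G0277800 and OS09G0296900, which were lower. OS09G0280300 and OS09G0296900 passed the FDR with a fold under the threshold. OS09G0280300 spanned 18.3 to 33.5 CPM with SUB1 and 12.1 to 28.3 without, and differed 1.53-fold at 2 d and 1.39-fold at 14 d, with a log2 fold change of 0.55 ± 0.04 (SE). OS09G0296900 spanned 22.7 to 36.0 CPM with SUB1 and 31.8 to 69.4 without. Its level in SUB1-carrying lines was 32.4 ± 1.2 CPM at 2 d and 28.2 ± 1.7 at 14 d (SD, n = 5 and 6), while the other lines went from 63.9 ± 3.9 to 35.4 ± 3.1 (n = 6 each), so that the factor went from 1.98 to 1.26, with 2.21 at 4 d between them.

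Members called in a single pair were mostly of low level. In the pair without AG1 these were OS09G0274900, higher, and OS09G0279300, lower. OS09G0274900 was at 0 to 0.216 CPM as a group mean at 2 and 4 d in every line, so its fitted fold rests on groups at or near 0. At 8 d it stood at 22.3 ± 2.9 CPM in IR64 (SD, n = 3) and 38.9 ± 0.036 in IR64(SUB1) (n = 2), while IR64(AG1) had 32.8 ± 4.6 and IR64(AG1,SUB1) 34.0 ± 6.1 (n = 3 each). In the pair with AG1 these were OS09G0274025 and OS09G0295300, higher, and OS09G0283600 and OS09G0286300, lower. OS09G0283600, annotated as a zinc finger protein of the C6HC type, reached 2.89 ± 0.49 CPM in IR64 and 3.18 ± 0.18 in IR64(AG1) at 14 d, while IR64(SUB1) had 1.83 ± 0.27 and IR64(AG1,SUB1) 1.41 ± 0.32 (SD, n = 3 each).

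Next to the SUB1 rows the differences were small. OS09G0286400, the tested member just below them, spanned 48.8 to 95.2 CPM (median 76.0) with SUB1 and 67.4 to 135 CPM (median 102) without, and the libraries overlapped at 4 d only. Its log2 fold change was -0.37 ± 0.05 (SE) in the pair without AG1 and -0.44 ± 0.05 in the pair with it, under the fold threshold. OS09G0286300 was at 8 d 7.18 ± 0.77 CPM in IR64, 7.94 ± 1.3 in IR64(AG1) and 5.07 ± 0.96 in IR64(AG1,SUB1) (SD, n = 3 each) and 6.72 ± 0.43 in IR64(SUB1) (n = 2). It was called in the pair with AG1, at -1.33 ± 0.38 (SE) on the log2 scale, on levels of 0.0438 to 0.541 CPM at 2 and 4 d. OS09G0284800, the third member on that side, was at 0.633 CPM or less in every library and did not pass the test.

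On the other side, OS09G0287300 had a log2 fold change of -0.12, OS09G0287500 of -0.19 and OS09G0292300 of -0.06, and none passed the FDR. By day, OS09G0287300 overlapped between the kinds of line except at 14 d, when SUB1-carrying libraries were at 8.07 to 12.8 CPM and the others at 14.1 to 19.2 CPM, a 1.53-fold lower mean with SUB1 that did not pass the FDR. OS09G0287500 spanned 8.13 to 14.1 CPM in SUB1-carrying libraries and 7.16 to 20.4 CPM in the others. OS09G0292300 stayed at 0.709 CPM or less, a level at which a difference of this size was not detectable. Of the 2 rows set aside, OS09G0286600 was lower in SUB1-carrying lines, with a log2 fold change of -2.33 ± 0.24 (SE), and was 2.92-fold lower at 8 d and 1.52-fold lower at 14 d. The mean over the days is larger because it also rests on 2 and 4 d. On those days SUB1-carrying libraries held 0 to 8 counts and the others 7 to 30. OS09G0287000 was at 27.0 against 24.1 CPM and 23.5 against 29.2 CPM at 8 and 14 d and was not called.

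**Figure D4:**
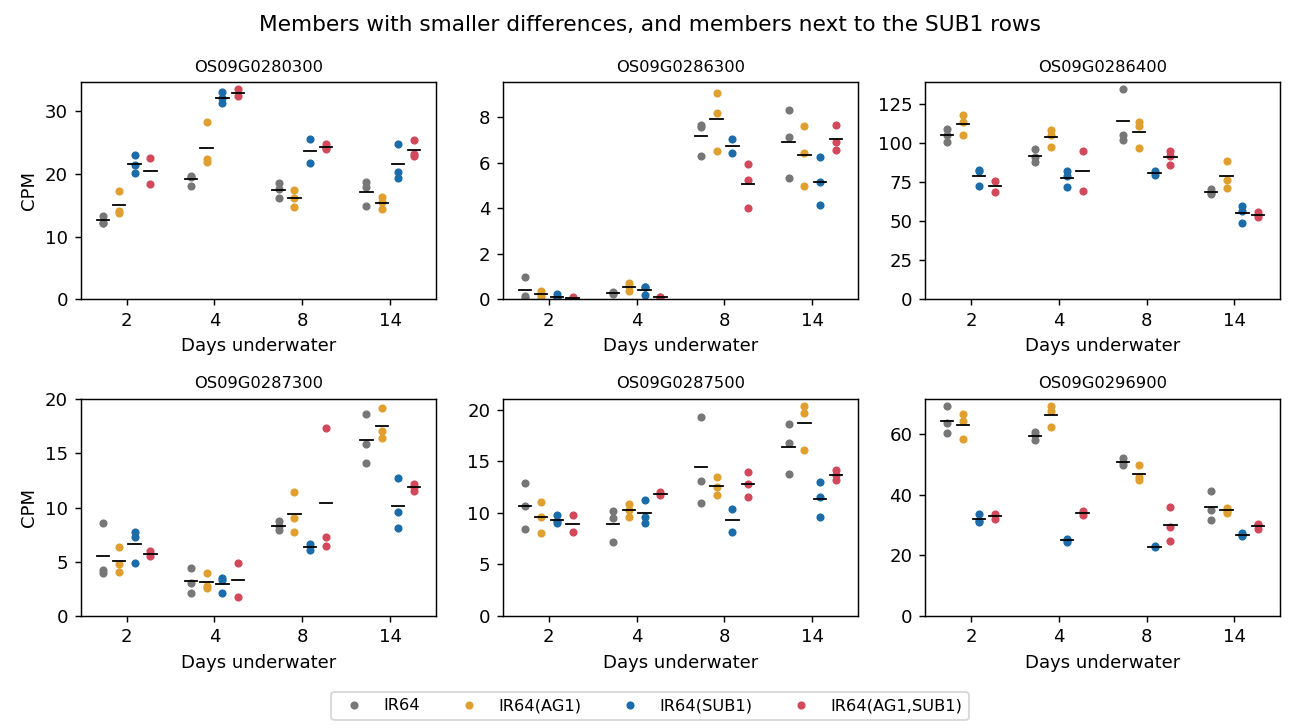
Level in CPM (vertical axis, from 0) against days underwater of OS09G0280300 and OS09G0296900, whose libraries did not overlap on any day, and of members next to the SUB1 rows, with a point for each library, a bar for each group mean and a colour for each line. The kinds of line lie apart in the panels of OS09G0280300 and OS09G0296900 on each day and are mixed in those of OS09G0287300 and OS09G0287500 at 4 d, while OS09G0287300 lies apart at 14 d.

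Other members with a description gave small or uncertain values. OS09G0294300, annotated as a ubiquitin-conjugating enzyme/RWD-like domain containing protein, spanned 0.390 to 4.03 CPM with SUB1 and 1.02 to 6.79 without, with a log2 fold change of -0.62 ± 0.14 (SE), and was under the fold threshold. OS09G0275400, annotated as a cytochrome P450, an enzyme family of many oxidation steps in plants, was at 0 in 18 of 21 SUB1-carrying libraries and in 15 of 24 others. It held 5 counts in all SUB1-carrying libraries and 106 in the others, and did not pass the test.

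The most abundant members did not differ past the thresholds. OS09G0297400 had a mean of 161 CPM over all libraries and a range of 131 to 192 CPM with SUB1 and 124 to 190 without. OS09G0297100 averaged 131 CPM, with ranges of 83.8 to 178 and 86.8 to 184, and OS09G0281600 averaged 111 CPM, with ranges of 77.6 to 136 and 78.6 to 145. Their log2 fold changes were -0.05 ± 0.03, -0.04 ± 0.03 and -0.08 ± 0.03 (SE), none past the FDR. Of the 81 members, 19 averaged under 1 CPM, 22 from 1 to 10, 36 from 10 to 100 and 4 more than that.

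The SUB1-line differences were present on every day. At 2 d, 11 members were called (13.8%, against 2.55% of all genes), 7 higher (0.81% of all genes) and 4 lower (1.74%). At 4 d there were 10 (12.5%, against 0.837%), 7 higher (0.47%) and 3 lower (0.367%). At 8 d there were 8 (10%, against 0.668%), 6 higher (0.348%) and 2 lower (0.321%). At 14 d there were 7 (8.75%, against 0.661%), 4 higher (0.371%) and 3 lower (0.29%). On all 4 days 6 members were called, and all 9 members called in both pairs kept the sign of their difference from day to day. A difference between 14 and 2 d in the SUB1 effect itself was called at 3 members (3.75%, against 1.2% of all genes), 2 of them more positive at 14 d (0.879% of all genes) and 1 more negative (0.325%). Over time, 33 members (41.2%) differed between 14 and 2 d as a mean of the lines, 18 higher and 15 lower, where 53.3% of all genes did, 34.5% higher and 18.8% lower.

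At 5 members (6.25%) the SUB1-line difference was called as different between the pair of lines with AG1 and the pair without it. All were more positive in the pair with AG1. Over all genes 3.33% were called in either direction, 1.98% in this one and 1.35% in the other. With so few members this count is not read as a property of the segment, and AG1 cannot be told apart from other differences between the lines. OS09G0295200 was lower in IR64(SUB1) than in IR64, with a log2 fold change of -1.47 ± 0.24 (SE), and higher in IR64(AG1,SUB1) than in IR64(AG1), with 1.26 ± 0.19. It was highest at 2 d, with 288 ± 54 CPM in IR64, 262 ± 38 with AG1 alone and 233 ± 16 with SUB1 alone (SD, n = 3 each), and 316 ± 3.7 with both (n = 2). At 14 d it was at 4.14 ± 3.3, 2.48 ± 0.76 and 0.268 ± 0.22 CPM in the first 3 lines and at 24.0 ± 14 in IR64(AG1,SUB1) (n = 3 each). The lines were thus close to each other at 2 d and spread on the later days.

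Its neighbour OS09G0295300, annotated only by likeness to a cDNA clone, had log2 fold changes of -0.97 and 1.23 in the pairs, with a difference of 2.2 ± 0.38 (SE). OS09G0298100 had -0.63 and 0.74, with a difference of 1.38 ± 0.31, and stood at 2.21 ± 0.26 CPM in IR64(AG1,SUB1) at 14 d against 0.338 ± 0.14 to 0.722 ± 0.33 in the other lines (SD, n = 3 each). OS09G0272600 had -0.78 and 0.24, with a difference of 1.02 ± 0.17, and OS09G0279800 had -0.72 and 0.89 at levels of 2.03 CPM or less, with a difference of 1.61 ± 0.52 at an FDR of 0.0388. These last calls were not firm, since with 5 counts added to each gene the differences were 0.94 and 0.88, under the fold threshold, and without the count filter OS09G0279800 had an FDR of 0.0511. All 5 were lower at 14 d than at 2 d in the mean of the lines, by log2 fold changes of -1.12 to -6.56. OS09G0272600 was not clearly lower in IR64(AG1,SUB1), at 27.4 and 10.8 CPM at 2 d and 17.1, 34.1 and 21.2 at 14 d. The count of 5 dropped to 2 without replicate 2 of IR64(AG1,SUB1) at 2 d. It was 3 without replicate 2 of IR64 at 2 d, replicate 3 of IR64(AG1) at 8 d, replicate 3 of IR64(SUB1) at 14 d or replicate 2 of IR64(AG1,SUB1) at 14 d, each left out in turn.

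The stage markers were set beside these values. At 8 d, the chlorophyll a/b-binding transcript was at 680 ± 340 CPM in IR64, 1593 ± 487 in IR64(AG1) and 1148 ± 125 in IR64(AG1,SUB1) (SD, n = 3 each), and at 1395 ± 374 in IR64(SUB1) (n = 2). The embryo marker Em was higher in IR64(AG1,SUB1) at 8 d, at 0.386 to 0.806 CPM, than in any library of the other lines, which reached 0.131 CPM. At 2 d Em was at 22.0 ± 4.6 CPM in that line (SD, n = 2) and 8.20 ± 0.84 in IR64(SUB1) (n = 3), and in IR64 and IR64(AG1) it spanned 5.90 to 31.2 CPM, on both sides of them. RAB16 at 8 d was at 1.76 to 2.30 CPM in IR64(AG1,SUB1), within the 0.232 to 3.47 CPM of the other lines. At 2 d RAB16 was at 9.47 and 17.1 CPM in IR64(AG1,SUB1) (n = 2), above the 2.35 to 9.43 CPM of the other lines. At 14 d the chlorophyll a/b-binding transcript spanned 963 to 3743 CPM with overlap of all lines, and the embryo genes RAB16 and Em were at 0.161 CPM or less in every library. The Rubisco small subunit transcript OS12G0274700 was at 920 ± 88 CPM in IR64(AG1,SUB1) at 14 d, above the other lines, whose means were 638 ± 40 to 702 ± 31 (n = 3 each). The other such transcript, OS12G0292400, was at 511 to 572 CPM in IR64(AG1,SUB1) at 14 d, while the other lines reached 470.5 CPM. The part of stage in the 5 differences was not tested.

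**Figure D5:**
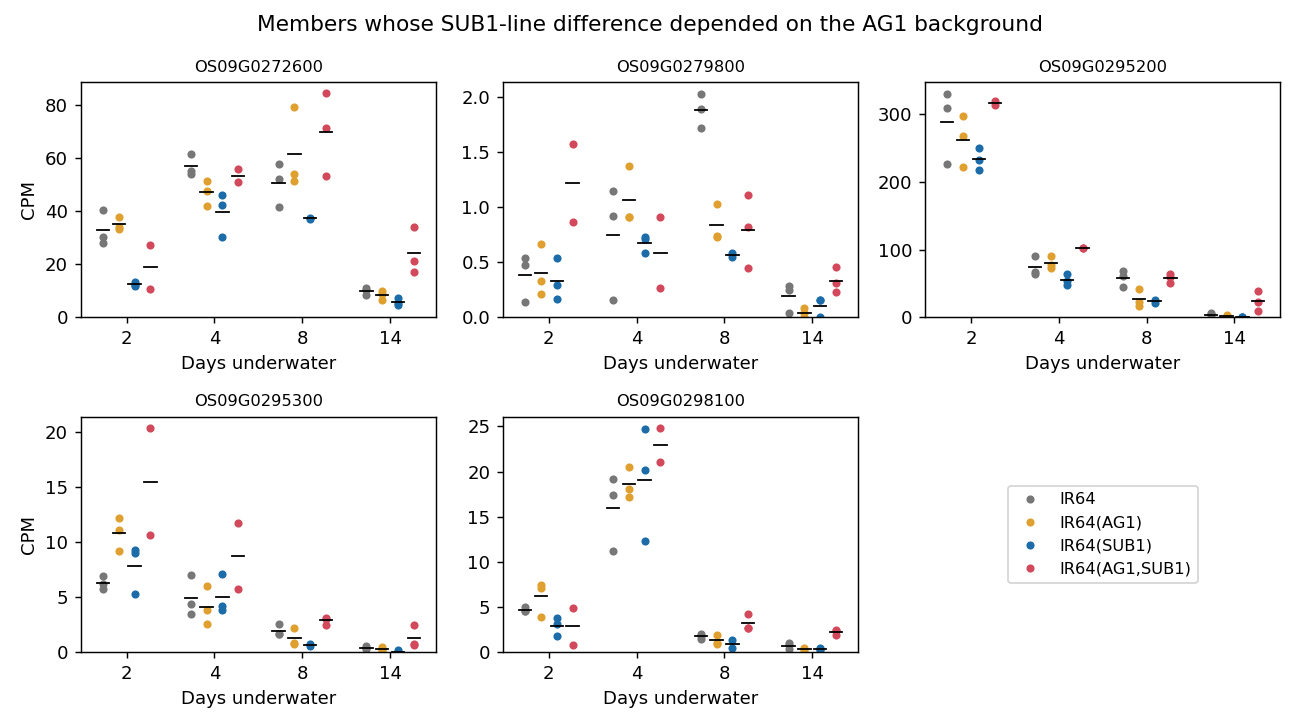
Level in CPM (vertical axis, from 0) against days underwater of the 5 members whose SUB1-line difference was called between the pairs, with a point for each library, a bar for each group mean and a colour for each line. At 14 d, the libraries of IR64(AG1,SUB1) lie at the top in the panels of OS09G0272600, OS09G0295200, OS09G0295300 and OS09G0298100, at low levels in that of OS09G0295300.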

How the data were processed

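The counts, whole numbers per gene, were used as deposited. To make them, the authors aligned strand-specific paired-end reads with TopHat2 2.0.14 and Bowtie2 2.2.5 to the Nipponbare reference, extended by SUB1A-1, and took exon counts per gene in union mode. Donor or IR64 alleles unlike Nipponbare may lose reads, and near-identical gene copies may share them. In R 4.3.3 with edgeR 4.0.16, filterByExpr on the 16 groups of line and day kept 26180 genes of 35677. After TMM scaling, the 45 libraries were fitted at once by quasi-likelihood, each group having its own coefficient. Genes were called at a Benjamini-Hochberg FDR under 0.05 over all genes tested, if the log2 fold change was over 1 in size. SUB1 contrasts took the mean of both pairs of lines or each pair, over the days or on each. Levels are CPM with TMM library sizes. The SE of a log2 fold change was not taken from the fit directly. It is the size of the fold change divided by the square root of its quasi-likelihood F statistic. A fold against a group at 0 was taken against a floor of 3 counts per library, which covers counting error only. The mean log2 fold change of a member with a group at 0 depends on the prior count and is no bound.

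The fit was tested on simulated data. Named were the members called in both pairs, those at the ends of that run and beside the SUB1 rows, and the 3 of highest level. Also named were those whose SUB1 difference was called between the pairs or that differed between lines with the same SUB1 state. Members called in a single pair, with libraries apart on every day or with a description were named after their values were seen. The members, lists and tests were chosen with earlier results of these data known. No identifier matched the RefSeq gene table at hand. Alternatives were DESeq2 1.42.0, RLE scaling, no count filter, no fold threshold, a fit of only the libraries compared, a replicate block, the authors' steps of 5 added counts and a likelihood ratio test, and leaving out each library. Fits without a library kept the genes and the dispersion trend of the full fit. P-values measure the spread between libraries of a line.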

Additional observations from a re-analysis of the deposited data

Results flagged for a closer look

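At 5 members the SUB1-line difference was called as different between the pair of lines with AG1 and the pair without it, by the interaction term of the edgeR fit over all genes. The log2 fold change of IR64(AG1,SUB1) over IR64(AG1) exceeded that of IR64(SUB1) over IR64 by 2.73 at OS09G0295200, 2.2 at OS09G0295300, 1.61 at OS09G0279800, 1.38 at OS09G0298100 and 1.02 at OS09G0272600.

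At 3 members the SUB1-line difference at 14 d was called as different from that at 2 d. It was more negative at 14 d by -1.22 on the log2 scale at OS09G0270700, where the fold change was 0.08 at 2 d and -1.14 at 14 d. It was more positive by 1.51 at OS09G0272600, with -1.15 and 0.36 on those days, and by 1.65 at OS09G0298100, with -0.93 and 0.71. The count of 3 dropped to 1 in 6 of the fits that left out a library, namely replicate 3 of IR64 at 14 d, replicate 1 of IR64(SUB1) at 2 d, replicates 1 or 2 of IR64(SUB1) at 14 d, replicate 3 of IR64(AG1,SUB1) at 2 d and replicate 2 of that line at 14 d.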

How the results depend on the processing

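The counts of members called stayed within 1.5 times of those reported under DESeq2, RLE scaling, no count filter, the fit of only the libraries compared and the replicate block. With no fold threshold they were 27 for SUB1-carrying against other lines and for the pair without AG1, 24 for the pair with AG1, 14 in both pairs, 11 for the lines with SUB1 and 13 for the difference between pairs, 24, 16, 15 and 15 at 2, 4, 8 and 14 d, 8 for 14 relative to 2 d and 64 for time. The authors' steps with 5 added counts gave 3 for the difference between pairs. Leaving out each library gave 10 to 13 for SUB1-carrying lines, 10 to 14 and 12 to 14 for the pairs, 8 to 10 in both, 3 to 5 for the lines with SUB1, 0 to 0 for those without, 2 to 6 for the difference between pairs, 10 to 13, 8 to 10, 7 to 10 and 6 to 8 on the days, 1 to 4 for 14 relative to 2 d and 32 to 34 for time. OS09G0292300, at -0.06, turned to 0.021 with the 5 added counts, and lay between -0.147, without replicate 1 of IR64(SUB1) at 14 d, and 0.076, without replicate 2 of IR64 at 2 d, when libraries were left out, with 0.016 without replicate 3 of IR64(SUB1) at 4 d. The cause was not tested.

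With the 5 added counts, which shrink the folds of low counts by construction, the log2 fold changes of OS09G0296400 (0.93), of OS09G0272600 (0.94) and OS09G0279800 (0.88) between pairs, and of OS09G0298100 between the lines with SUB1 (0.97) went under the fold threshold. Without the count filter OS09G0279800 had an FDR of 0.0511.

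Libraries were not paired by replicate number in the main fit. Of 21 same-numbered pairs, 5 correlated over 0.1 (range -0.059 to 0.274), all of them at 8 or 14 d. A cut of 0.1 cannot show that the libraries were unpaired on those days. With the replicate block there were 12 calls for SUB1-carrying lines, 12 and 14 for the pairs and 4 for the difference between pairs, where OS09G0272600 moved to 0.999.

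In bins of 10000 identifiers the first held 32.3% called. The depth limits the precision of members with few counts per library.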
